A study of Mus musculus with 3 samples.

Results

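The genes described here are 37 cell cycle genes of the 32293 features in the count tables of CD45- thymic stroma. They were listed by name after the phase of the cycle in which each is known to act. There were 22 mitotic members, made up of 10 mitotic kinases, cyclins and their partners (Cdk1, Ccnb1, Ccnb2, Ccna2, Aurka, Aurkb, Plk1, Bub1, Bub1b, Birc5) and 12 spindle, kinetochore and chromosome proteins (Top2a, Cenpf, Cenpe, Cenpa, Tpx2, Kif11, Kif20a, Nusap1, Prc1, Hmmr, Ube2c, Mki67). There were 15 S phase members, made up of 9 replication licensing and helicase genes (Mcm2 to Mcm7, Cdt1, Cdc6, Gins2), 3 genes of DNA synthesis and nucleotide supply (Pcna, Rrm2, Tyms) and 3 regulators of the G1/S step (Ccne1, Ccne2, E2f1).

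Stroma was isolated from pooled thymi of untreated C57BL/6 mice at 20 months of age, depleted of CD45+ hematopoietic cells with magnetic beads, sorted, and sequenced as 3′ single-cell libraries. Of the 3 libraries, 1 came from female and 1 from male Foxn1Lin mice, in which Cre made under Foxn1, the transcription factor of thymic epithelium, permanently switches on a tdTomato reporter, and 1 came from wild type mice labelled male. Each group was 1 library, so groups were not tested against each other, and all per-library values are given in the order Foxn1Lin female, Foxn1Lin male, wild type. The cell-type label of the wild type library reads CD45-PECAM1+ while its title reads CD45-, and the shared protocol names female mice for all 3. The libraries held 8616, 3583 and 5478 called barcodes with median counts of 4675, 7431 and 7947 UMIs (unique molecular identifiers, each 1 counted transcript), and pairs of libraries shared 3 to 14 barcode sequences.

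Stromal classes were set by marker counts alone: thymic epithelial cells (TEC) by at least 2 UMIs of Epcam, endothelial cells (EC) by at least 2 of Pecam1, fibroblasts (FB) by at least 2 of Pdgfra, mural cells by at least 5 of Rgs5 and Acta2 together, and mesothelial cells by at least 2 of Upk3b. Barcodes that met more than 1 gate (594, 174 and 445) were set aside. This gave 467, 430 and 878 TEC, 1883, 823 and 862 EC, 1852, 864 and 1709 FB, 427, 449 and 353 mural barcodes and 340, 0 and 36 mesothelial barcodes. The wild type library held TEC and FB as well as EC, which goes against a PECAM1+ selection. Every defining marker of each class was detected in its class, and the class's own markers summed to 6921 to 8633 CPM (a sum's UMIs scaled to 1 common total, so that sums of different depth can be compared) in TEC and 5907 to 6552 CPM in EC. TEC also carried 2749 to 5173 CPM of 4 parathyroid markers (Gcm2, Pth, Casr, Chga), against 7.89 to 260 CPM in EC, and 360, 43.0 and 113 CPM of 15 thymocyte markers.

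Cells that divide make these genes in 2 waves. Before and during DNA replication, E2F factors turn on the licensing factors, the MCM helicase and the enzymes that supply nucleotides. Later, the MYBL2 and FOXM1 factors turn on the kinases, cyclins and spindle proteins that condense, align and part the chromosomes, and in resting cells the DREAM complex and the pocket proteins hold both sets down through short promoter elements, the E2F site and the CHR (cell cycle genes homology region), the latter often beside CCAAT boxes. In the thymus, epithelial cells of the medulla are known for their steady turnover, whereas fibroblasts and vessels of adult tissue mostly rest.

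The promoters of the members differed along the same line. RefSeq (GRCm38.p6) gave a promoter window, 250 bases before to 50 bases after the start, for 30 of the 37 members. A CHR (TTTGAA or TTTAAA on either strand) lay in 16 of 18 mitotic windows (88.9%), in 4 of 12 S phase windows (33.3%) and in 27.8% of the windows of all 27025 genes. CCAAT on either strand lay in 88.9%, 58.3% and 37.9%, and both elements lay in 83.3%, 25% and 10.9%. Strict E2F forms (TTTGGCGC, TTTCCCGC, TTTGCCGC or TTTCGCGC, either strand, overlapping matches joined) lay in 1 of 18 mitotic windows (5.56%), in 6 of 12 S phase windows (50%) and in 2.32% of all. These letters describe the windows and were not tested for binding. Examples are 4 mitotic promoters with CHR and CCAAT and 2 S phase promoters with E2F forms and CCAAT. The window of Mcm5, 1 of these 2, also holds a CHR that lies outside the printed bases. Each promoter is given as the 180 bases before the start, 5′ to 3′ on the strand of the gene, with all matches to the letters above in capitals.
Top2a (chr11:99024190-99024369, minus strand): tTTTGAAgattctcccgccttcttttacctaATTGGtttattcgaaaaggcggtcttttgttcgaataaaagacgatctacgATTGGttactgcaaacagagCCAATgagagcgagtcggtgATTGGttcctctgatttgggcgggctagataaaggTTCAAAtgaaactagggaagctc
Ccnb2 (chr9:70421555-70421734, minus strand): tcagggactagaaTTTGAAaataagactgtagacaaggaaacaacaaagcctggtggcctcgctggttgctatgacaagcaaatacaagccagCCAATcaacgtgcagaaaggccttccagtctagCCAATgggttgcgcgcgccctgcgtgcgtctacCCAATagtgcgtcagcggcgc
Mki67 (chr7:135716380-135716559, minus strand): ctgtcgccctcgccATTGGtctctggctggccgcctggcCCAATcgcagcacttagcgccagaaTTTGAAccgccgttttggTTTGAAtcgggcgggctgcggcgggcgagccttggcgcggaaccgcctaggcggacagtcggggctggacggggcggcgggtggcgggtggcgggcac
Kif11 (chr19:37376202-37376381, plus strand): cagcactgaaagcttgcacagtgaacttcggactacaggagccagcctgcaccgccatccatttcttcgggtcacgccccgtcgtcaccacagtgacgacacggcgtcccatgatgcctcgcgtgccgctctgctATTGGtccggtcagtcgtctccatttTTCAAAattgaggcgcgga
Mcm5 (chr8:75109329-75109508, plus strand): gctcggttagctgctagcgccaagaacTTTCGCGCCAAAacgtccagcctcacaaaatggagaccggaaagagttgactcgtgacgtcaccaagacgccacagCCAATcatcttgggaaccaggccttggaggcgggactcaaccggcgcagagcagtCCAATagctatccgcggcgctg
Mcm6 (chr1:128359706-128359885, minus strand): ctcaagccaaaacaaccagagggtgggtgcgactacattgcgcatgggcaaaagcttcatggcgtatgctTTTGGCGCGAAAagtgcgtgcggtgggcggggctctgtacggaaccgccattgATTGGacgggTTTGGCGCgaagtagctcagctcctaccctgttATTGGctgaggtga

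Of the 5 classes, TEC had the highest share of barcodes rich in these transcripts. Every barcode was thinned at random to 2000 UMIs, which sets all classes to 1 depth, and a barcode with at least 5 member UMIs after thinning is called member-high. In TEC, 16 of 451 barcodes of the Foxn1Lin female library were member-high, or 3.55% (95% exact binomial interval 2.04% to 5.70%). The share was 7 of 410 (1.71%, 0.689% to 3.49%) in the Foxn1Lin male library and 33 of 849 (3.89%, 2.69% to 5.42%) in the wild type. In FB, the shares were 4 of 1820 (0.220%, 0.0599% to 0.562%), 0 of 861, which allows a share of up to 0.348%, and 3 of 1685 (0.178%, 0.0367% to 0.519%). TEC thus lay above FB in each of the 3 libraries, with intervals that did not overlap. Such intervals cover counting error only, and with 3 libraries a two-sided sign-flip permutation test cannot go below p = 0.25.

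EC lay between TEC and FB. Member-high EC made up 19 of 1582 (1.20%, 0.725% to 1.87%), 3 of 793 (0.378%, 0.0781% to 1.10%) and 6 of 817 (0.734%, 0.270% to 1.59%). The interval of EC lay below that of TEC in the Foxn1Lin female and wild type libraries and overlapped it in the male library. Mural barcodes gave 2 of 393 (0.509%), 1 of 436 (0.229%) and 0 of 343, which allows up to 0.875%, and mesothelial barcodes gave 0 of 327 and 0 of 36, which allow up to 0.917% and 8.33%. In number, EC held more member-high barcodes than TEC in the Foxn1Lin female library. Outside the 5 classes the share was 1.86%, 3.47% and 7.64% among barcodes that met more than 1 gate, above TEC in the male and wild type libraries, and 1.62%, 1.14% and 2.59% among barcodes that met none. The 36 wild type mesothelial barcodes therefore could not show a share of the size seen in TEC.

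The excess in TEC was one of many UMIs in few barcodes. At least 1 member UMI after thinning was found in 34.8%, 26.8% and 30.6% of TEC, in 39.3%, 39.1% and 34.0% of EC, in 24.6%, 32.4% and 27.2% of FB and in 33.1%, 33.5% and 28.9% of mural barcodes. By that measure TEC did not exceed EC in any library, nor FB in the male library. At the threshold, 3, 1 and 2 TEC barcodes held exactly 5 thinned member UMIs and 6, 0 and 3 held 4, while the richest TEC barcodes held 28, 15 and 25. Without thinning, TEC reached 19.3%, 15.6% and 28.0%, EC 6.01%, 16.3% and 11.5%, and FB 1.76%, 4.76% and 3.09%, so that EC passed TEC in the male library. Median depth before thinning was 10837, 12384 and 15993 UMIs in TEC, 3854, 7355 and 6954.5 in EC and 7392.5, 9387.5 and 8229 in FB, and thinning left out 301 of the 1883 EC of the female library as too shallow, against 3 to 45 barcodes in each other combination of these classes and libraries.

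**Figure D1:**
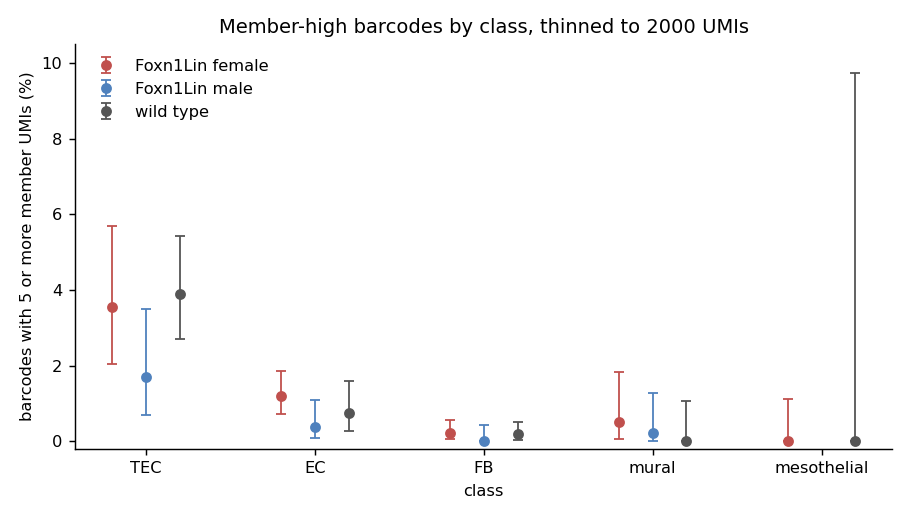
Share of barcodes with 5 or more member UMIs after thinning to 2000 UMIs (percent, vertical axis) in each stromal class (horizontal axis), 1 point per library with its 95% exact binomial interval. TEC sit at 1.71% to 3.89%, above FB at 0% to 0.220% in all 3 libraries, with EC between them.

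The makeup of the member-high TEC is a description, since these barcodes were picked by the same UMIs and the list holds 22 mitotic and 15 S phase genes. Mitotic UMIs exceeded S phase UMIs in 16 of 16, 7 of 7 and 26 of 33 barcodes, and Mki67, the Ki-67 chromosome surface protein used as a proliferation marker, had at least 1 UMI in 14, 7 and 30 of them. Member-high TEC were also deeper, with medians of 15162.5, 29405 and 28551 UMIs against 11145, 12889 and 16261.5 in the other TEC, and Scrublet scores placed 1 barcode of each library among the likely doublets.

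Thymocytes divide in the same organ, so the markers of thymocytes (15 genes, among them Cd3e) and of hematopoietic cells (7 genes, among them Ptprc) were counted in these barcodes. Barcodes with more than 2 UMIs of both lists together, called immune-marker barcodes here, made up 6 of 16, 6 of 7 and 19 of 33 member-high TEC and 48.2%, 21.6% and 28.6% of all TEC barcodes. In EC the count was 10 of 19, 1 of 3 and 5 of 6, and the 6 wild type member-high EC had a median of 257.5 such UMIs against 0 in the other wild type EC. Summed thymocyte markers were at 2223, 3619 and 13010 CPM in member-high EC against 165, 120 and 161 CPM in the other EC. The 6 EC markers were at 2449, 3026 and 931 CPM against 6233, 5919 and 6657 CPM. In member-high TEC thymocyte markers were at 262, 31.8 and 184 CPM against 365, 43.3 and 108 CPM in the other TEC, and the 6 TEC markers at 4601, 6337 and 3974 CPM against 8410, 8691 and 7103 CPM. Their own markers were thus lower in member-high than in other barcodes of both classes in each library. The thymocyte sums rested on few barcodes. Per barcode, member-high EC had a median of 1, 0 and 219 thymocyte UMIs and a highest value of 220, 177 and 986, and member-high TEC a median of 0, 1 and 0 and a highest value of 60, 2 and 192. A single barcode held most of the thymocyte UMIs of the Foxn1Lin female and wild type member-high TEC and of the male member-high EC, so those sums describe no class. Hematopoietic markers were at 346, 599 and 330 CPM in member-high TEC against 781, 477 and 438 CPM in the other TEC, with a median of 1.5, 10 and 7 UMIs per member-high barcode. The immune-marker count of male TEC therefore rested mainly on hematopoietic genes. No UMI of Cd3e, Cd3d, Cd3g, Lck or Ptprc was found in 12 of 16, 7 of 7 and 28 of 33 member-high TEC. When the immune-marker barcodes were dropped, TEC held 10 of 227, 1 of 320 (0.313%) and 14 of 605 (2.31%), EC 9 of 1440 (0.625%), 2 of 765 and 1 of 781 (0.128%), and FB 3 of 1688, 0 of 851 and 3 of 1668. When every barcode with any UMI of Cd3e, Cd3d, Cd3g, Lck or Ptprc was dropped, a setting added after the data were seen, TEC held 12 of 319, 7 of 369 and 28 of 759, EC 6 of 1292 (0.464%), 2 of 719 and 1 of 747 (0.134%), and FB 3 of 1523, 0 of 830 and 3 of 1649. TEC lay above FB in each library under both settings, although the 1 TEC barcode left in the male library under the first does not separate the classes by counting error, and EC of the wild type library no longer lay above FB. The part of immune cell transcripts in the remaining member-high barcodes was not tested.

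Summed over all barcodes of a class, the members made up 395, 324 and 438 CPM of TEC, 366, 300 and 346 CPM of EC, 167, 179 and 200 CPM of FB and 225, 227 and 155 CPM of mural sums. A higher sum can come from more barcodes with the transcript or from more transcript in each, which a sum alone cannot tell apart. The split by phase was wider than the total. Mitotic members reached 253, 194 and 264 CPM in TEC, 131, 63.3 and 128 in EC, 46.6, 20.6 and 70.4 in FB and 86.6, 56.5 and 28.2 in mural sums. TEC were highest in every library by this measure. S phase members reached 142, 130 and 174 CPM in TEC, 236, 236 and 218 in EC and 121, 158 and 129 in FB, so that EC were highest in every library and TEC lay below FB in the male library. Empty droplets, barcodes of 119 to 474, 22 to 84 and 24 to 94 UMIs that hold free RNA, carried 503, 420 and 550 member CPM, of which 268, 203 and 331 were mitotic, above every class. The part of this free RNA in the class levels was not tested.

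**Figure D2:**
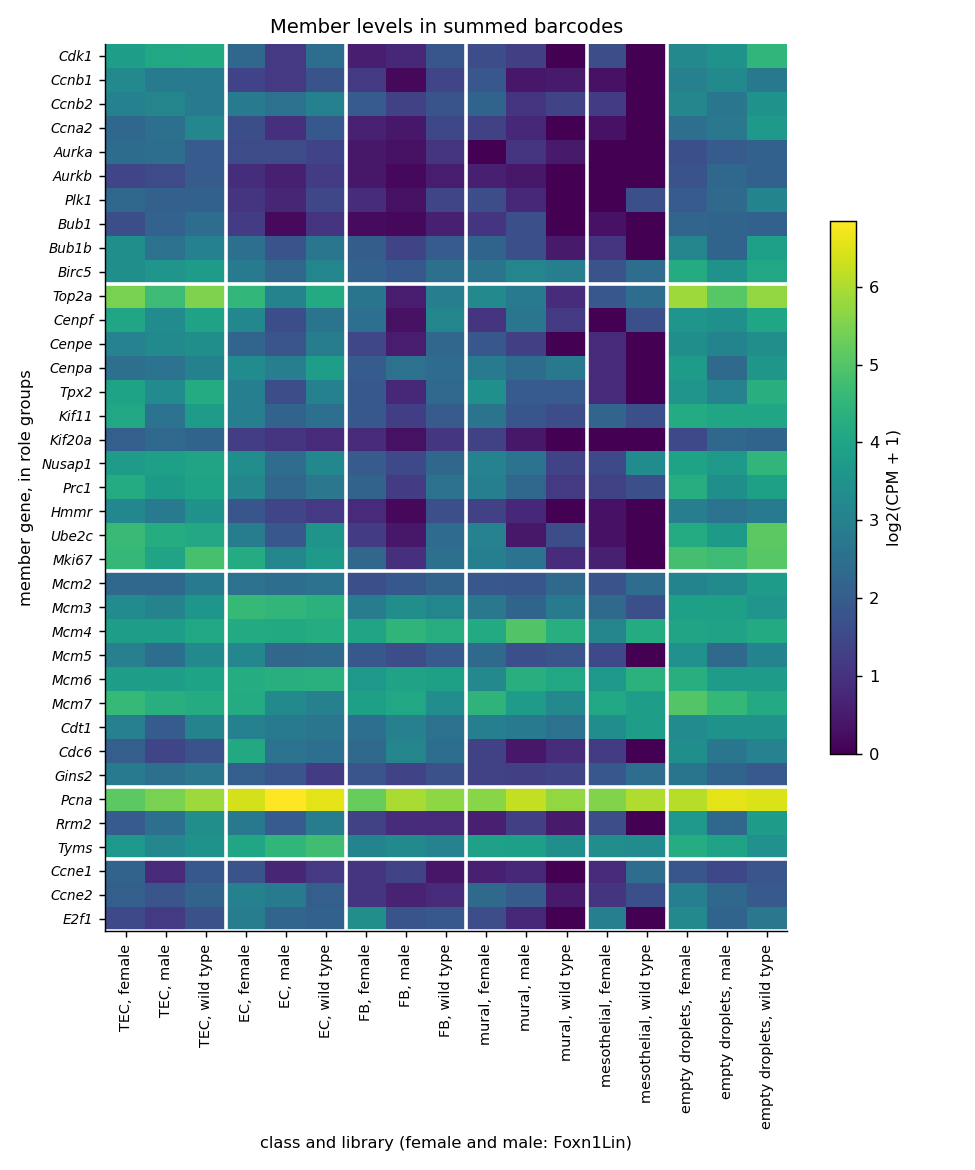
Level of each of the 37 members (vertical axis, in role groups) in each class and library (horizontal axis) as log2(CPM + 1), in color. Of the class columns, most mitotic members are brightest in the 3 TEC columns, though Cenpa is brighter in EC. Several S phase members such as Pcna are as bright or brighter in the EC columns.

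For tests across genes, the UMIs of each class were summed per library and classes were compared with edgeR's quasi-likelihood test with library as a block, p-values adjusted by Benjamini-Hochberg over 17598 genes, and 0.05 as the limit. The 3 libraries served as the replicates of each class (2 for mesothelial cells). The library block took out shifts shared by all classes of a library. The p-values therefore rest on how far differences between classes varied from library to library, over all classes fitted together. TEC differed from FB in 27 of the 37 members, 23 higher and 4 lower, where 55% of all tested genes differed, 30.1% higher and 24.9% lower. By role, 19 of 22 mitotic members were higher in TEC, none was lower, and the median log2 fold change was 2.12, against 0.09 over all genes. Among S phase members 4 were higher and 4 lower, and the median was 0.03.

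Of the mitotic kinases and cyclins, 9 of 10 were higher in TEC than in FB. Cdk1, the kinase that starts mitosis, stood at 12.9, 16.1 and 16.8 CPM in TEC, 3.95, 1.18 and 4.55 CPM in EC and 0.489, 0.695 and 2.56 CPM in FB. All TEC libraries lay above all EC and FB libraries, and the fitted log2 fold change was 3.38 ± 0.64 (SE, n = 3 libraries) against FB (edgeR adjusted p = 0.00108) and 1.95 ± 0.60 against EC (adjusted p = 0.0169). Birc5, the survivin subunit of the chromosomal passenger complex, stood at 9.52, 10.9 and 12.6 CPM in TEC against 3.36, 2.67 and 4.73 CPM in FB, a log2 fold change of 1.29 ± 0.26 (edgeR adjusted p = 0.00158) with no overlap between the classes. Bub1b, the BUBR1 kinase of the spindle checkpoint, had the smallest change of the group, 1.15 ± 0.40 (edgeR adjusted p = 0.0297), from 9.67, 4.97 and 7.02 CPM in TEC against 3.08, 1.62 and 2.96 CPM in FB. Its partner Bub1 had one of the largest, 3.25 ± 0.83 (edgeR adjusted p = 0.00664), but from few UMIs, with 2.15, 3.41 and 4.45 CPM in TEC against 0.140, 0.116 and 0.526 CPM in FB.

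Cyclin B1 (Ccnb1), which activates Cdk1, stood at 8.75, 6.05 and 5.93 CPM in TEC against 1.26, 0.116 and 1.71 CPM in FB, a log2 fold change of 2.50 ± 0.56 (edgeR adjusted p = 0.00295). Cyclin A2 (Ccna2), which acts from S phase to early mitosis, stood at 3.84, 4.81 and 8.07 CPM in TEC against 0.559, 0.348 and 1.77 CPM in FB. The aurora kinases, which build the spindle (Aurka) and correct kinetochore attachment (Aurkb), stood at 4.30, 4.50 and 2.91 and at 1.69, 2.02 and 2.91 CPM in TEC, with 0.350, 0.232 and 1.05 and 0.350, 0.116 and 0.460 CPM in FB and log2 fold changes of 2.41 ± 0.60 and 2.44 ± 0.55 against FB, both past the limit. TEC and FB did not overlap for any of these 4 genes. Plk1, the polo-like kinase of mitotic entry and exit, was the group's exception, with 3.99, 3.26 and 3.35 CPM in TEC against 0.839, 0.232 and 1.71 CPM in FB and a log2 fold change of 1.69 ± 0.70 that missed the limit (edgeR adjusted p = 0.0585).

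Among spindle, kinetochore and chromosome proteins, 10 of 12 were higher in TEC than in FB. Top2a, the topoisomerase that untangles sister chromatids, stood at 43.5, 24.7 and 45.2 CPM in TEC, 22.0, 7.35 and 17.3 CPM in EC and 5.31, 0.464 and 6.57 CPM in FB, and its log2 fold change against FB was 2.98 ± 0.55 (edgeR adjusted p = 0.000901). Mki67 stood at 22.7, 15.1 and 28.0 CPM in TEC, 17.4, 7.75 and 12.0 CPM in EC and 3.78, 0.927 and 4.80 CPM in FB, a log2 fold change of 2.51 ± 0.46 against FB (edgeR adjusted p = 0.000917). For both genes each TEC library lay above its own EC and FB, but across libraries TEC and EC came close (Top2a) or overlapped (Mki67), and neither gene passed the limit between TEC and EC (0.99 ± 0.51 and 0.49 ± 0.43). Ube2c, which hands ubiquitin to mitotic cyclins, had the largest change of the group against FB, 3.26 ± 0.62 (edgeR adjusted p = 0.00111), from 23.5, 18.0 and 16.5 CPM in TEC against 1.33, 0.348 and 4.21 CPM in FB.

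Hmmr, a spindle-associated hyaluronan receptor, stood at 8.14, 5.90 and 10.2 CPM in TEC, 2.56, 1.71 and 1.20 CPM in EC and 0.769, 0.116 and 2.17 CPM in FB, with TEC above both other classes throughout. The kinetochore motor Cenpe stood at 7.22, 8.54 and 9.66 CPM in TEC against 1.75, 0.464 and 3.75 CPM in FB, and the cytokinesis motor Kif20a at 3.22, 4.03 and 3.62 CPM in TEC against 0.769, 0.232 and 1.12 CPM in FB. All of these 3 passed the limit against FB, with log2 fold changes of 2.69 ± 0.63, 1.89 ± 0.59 and 2.00 ± 0.60. Cenpf, a kinetochore protein, did not, although TEC were higher within each library: it stood at 15.5, 8.85 and 14.3 CPM in TEC against 4.61, 0.232 and 7.75 CPM in FB, and the change was 1.46 ± 0.74 (edgeR adjusted p = 0.116). Cenpa, the centromeric histone, stood at 4.76, 5.12 and 7.02 CPM in TEC, 8.87, 6.57 and 13.2 CPM in EC and 3.01, 4.98 and 4.27 CPM in FB. It was the one mitotic member called lower in TEC than in EC (log2 fold change -1.12 ± 0.29, edgeR adjusted p = 0.00704), and against FB it moved by 0.13 ± 0.30.

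**Figure D3:**
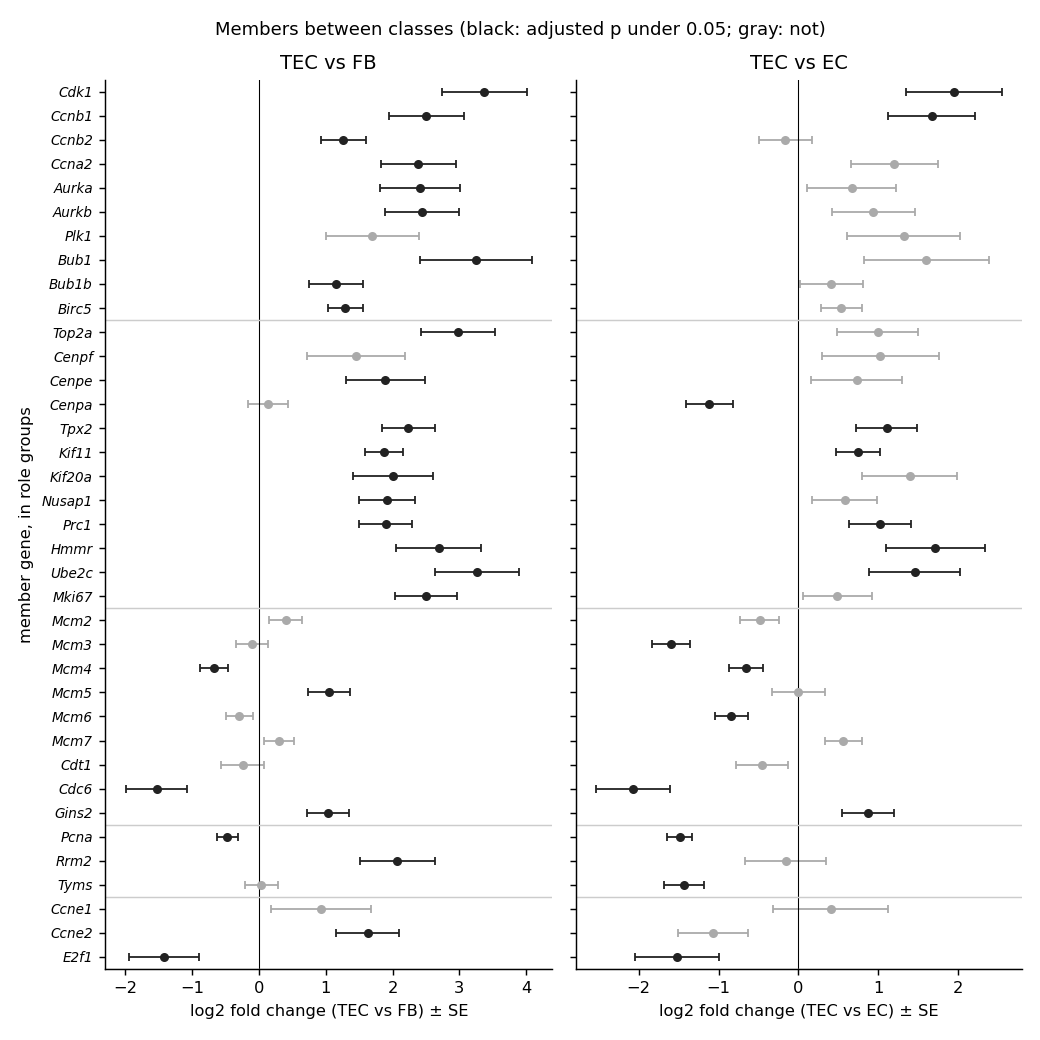
Fitted log2 fold change of each member (horizontal axis, ± SE) between classes, 1 panel per comparison, with members in role groups on the vertical axis, black where the adjusted p was under 0.05 and gray otherwise. Mitotic members lie to the right of 0 for TEC against FB, up to 3.38 for Cdk1, while S phase members fall on both sides, down to -1.53 for Cdc6.

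The S phase members divided. Cdc6, which loads the helicase at origins, stood at 3.22, 1.71 and 2.36 CPM in TEC, 17.0, 5.12 and 4.68 CPM in EC and 4.12, 7.65 and 4.60 CPM in FB. TEC lay below both other classes in every library, by a log2 fold change of -1.53 ± 0.46 against FB (edgeR adjusted p = 0.0153) and -2.07 ± 0.46 against EC (adjusted p = 0.003). The helicase subunit Mcm4 stood at 13.4, 13.0 and 16.1 CPM in TEC against 15.1, 21.4 and 18.3 CPM in FB and was lower by -0.68 ± 0.21 (edgeR adjusted p = 0.0182). Mcm5, another subunit of the same ring, was higher by 1.05 ± 0.32 (edgeR adjusted p = 0.0163), from 6.91, 4.50 and 8.62 CPM in TEC against 2.73, 2.09 and 2.89 CPM in FB. Gins2, of the GINS complex that opens the helicase, was also higher, by 1.04 ± 0.32 (edgeR adjusted p = 0.0168), from 6.14, 4.81 and 5.54 CPM against 2.52, 1.62 and 2.23 CPM. Neither of these last pairs overlapped. Mcm7 stood at 23.0, 18.6 and 17.6 CPM in TEC against 13.8, 16.0 and 9.27 CPM in FB, and its log2 fold change of 0.30 ± 0.23 missed the limit.

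Pcna, the sliding clamp of the replication fork, stood at 33.8, 43.3 and 56.5 CPM in TEC, 82.9, 114 and 93.5 CPM in EC and 37.3, 62.4 and 50.1 CPM in FB. EC lay above both other classes in every library, while TEC lay below FB in both Foxn1Lin libraries and above FB in the wild type. The fitted log2 fold change was -1.49 ± 0.16 between TEC and EC (edgeR adjusted p = 1.97e-05) and -0.47 ± 0.16 between TEC and FB (adjusted p = 0.0245). Tyms, thymidylate synthase, stood at 11.5, 8.07 and 10.4 CPM in TEC, 15.2, 21.7 and 25.9 CPM in EC and 7.55, 8.69 and 7.16 CPM in FB, which placed it lower in TEC than in EC (-1.43 ± 0.25, edgeR adjusted p = 0.000539) and at 0.03 ± 0.25 against FB. Rrm2, the regulated subunit of ribonucleotide reductase, was higher in TEC than in FB, with 2.92, 4.66 and 9.38 CPM in TEC against 1.54, 0.811 and 0.789 CPM in FB and a log2 fold change of 2.07 ± 0.56 (edgeR adjusted p = 0.00865).

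Of the G1/S regulators, cyclin E2 (Ccne2) stood at 3.22, 2.48 and 3.51 CPM in TEC, 7.05, 5.91 and 3.21 CPM in EC and 1.05, 0.580 and 0.789 CPM in FB, with TEC above FB in all libraries (log2 fold change 1.63 ± 0.48, edgeR adjusted p = 0.0134). Cyclin E1 (Ccne1) stood at 3.53, 0.776 and 2.69 CPM in TEC against 1.05, 1.62 and 0.329 CPM in FB, which overlapped. E2f1, the activator of the replication genes, stood at 1.84, 1.24 and 2.25 CPM in TEC against 9.44, 2.43 and 2.69 CPM in FB, and was lower in TEC by -1.42 ± 0.52 (edgeR adjusted p = 0.0372).

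The 4 lower calls against FB depended on scaling. With size factors from DESeq2 in place of edgeR's TMM, the median of all genes for TEC against FB moved from 0.09 to 0.23 on the log2 scale. Then 24 members were higher and 1 lower (67.6%, against 55.6% of all genes). Of the 4, only Cdc6 kept its call (-1.39), while Mcm4 (-0.53), Pcna (-0.33) and E2f1 (-1.29) did not. The 19 mitotic members called higher became 20. Without the Foxn1Lin male library, 14 members were called (37.8%), all higher, 13 of them mitotic, where 41% of all genes were. The members were then no longer called more often than genes at large. From thinned sums, 9 of 19 members were called, 47.4% against 45.7% of all genes. When immune-marker barcodes were dropped, 6 of the 7 male member-high TEC among them, 36 were tested, with 9 members higher, all mitotic, and 5 lower, or 38.9% against 48.2% of all genes. When instead barcodes with any UMI of Cd3e, Cd3d, Cd3g, Lck or Ptprc were dropped, 22 members were higher, 19 of them mitotic, and 4 lower, or 70.3% against 53.9% of all genes.

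Against EC, TEC differed in 16 members (43.2%), 8 higher and 8 lower, where a larger share, 56.3% of all genes, differed, 31.4% higher and 24.9% lower. The higher members were 7 of the 22 mitotic members and Gins2, a mitotic share near the background of 31.4%, and the lower members were 7 of the 15 S phase members and Cenpa, where 24.9% of all genes were lower. By size, the higher members were Cdk1, Hmmr (1.71 ± 0.62), Ccnb1 (1.67 ± 0.55), Ube2c (1.46 ± 0.57), the spindle assembly factor Tpx2 (1.11 ± 0.38), the midzone protein Prc1 (1.02 ± 0.39), Gins2 (0.87 ± 0.33) and the spindle motor Kif11 (0.74 ± 0.28). The lower S phase members were Cdc6, Mcm3 (-1.60 ± 0.24), E2f1 (-1.52 ± 0.53), Pcna, Tyms, Mcm6 (-0.84 ± 0.20) and Mcm4 (-0.66 ± 0.21). Mcm3, a further helicase subunit, stood at 8.91, 7.29 and 11.1 CPM in TEC against 23.0, 21.5 and 19.7 CPM in EC, with no overlap. Leaving out 1 library left 1 higher and 5 lower without the Foxn1Lin male (16.2% of members, against 41.3% of all genes). It left 4 and 6 without the wild type (27%, against 39.1%) and 3 and 6 without the Foxn1Lin female (24.3%, against 52.2%). With immune-marker barcodes dropped 3 were higher, 2 of them mitotic, and 9 lower (33.3%, against 52.5% of all genes). With any Cd3e, Cd3d, Cd3g, Lck or Ptprc UMI as the limit 12 were higher, 11 of them mitotic, and 7 lower (51.4%, against 56.3%). Members were called less often than genes at large under each of these settings.

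Against mural cells, TEC were higher in 19 members, 17 of them mitotic, and lower in 2 (Pcna, -0.68 ± 0.16, and Mcm4, -0.94 ± 0.23), where 48.7% of all genes differed, 26.1% higher and 22.6% lower. Cdk1 again had the largest called change, 3.40 ± 0.81 (edgeR adjusted p = 0.00537), with 2.07, 1.46 and 0 CPM in mural sums. This excess over all genes was lost without the Foxn1Lin male library, where 8 members were called (21.6%, against 32.1% of all genes), without the wild type (5, 13.5% against 30%) and with immune-marker barcodes dropped (8 of 36, 22.2% against 45.4%). It was also lost from thinned sums (7 of 19, 36.8% against 43.7%) and in a fit of these 2 classes alone (14 of 33, 42.4% against 47.3%). Without member-high barcodes, where a fall is built in, 34.4% of members were called against 48.3% of all genes.

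EC were higher than FB in 17 members and lower in none, where 39.7% of all genes differed, 19.7% higher and 19.9% lower. Here both phases took part, with 10 mitotic members, among them Mki67 (2.02 ± 0.47) and Top2a (1.99 ± 0.55), and 7 S phase members, Ccne2 (2.70 ± 0.48), Rrm2 (2.23 ± 0.55), Mcm3 (1.50 ± 0.24), Tyms (1.47 ± 0.25), Mcm5 (1.05 ± 0.33), Pcna (1.02 ± 0.16) and Mcm2 (0.89 ± 0.25). This count fell to 6 of 36 without the immune-marker barcodes (16.7%, against 42.2% of all genes), and to 9, 8 and 9 without the Foxn1Lin female, Foxn1Lin male or wild type library (24.3%, 21.6% and 24.3%, against 36.7%, 26.8% and 23.8% of all genes). The share of members called was near or below that of all genes under each of these settings. Thymocyte markers summed to 229, 143 and 404 CPM in EC and to 94.3, 8.69 and 15.3 CPM in FB, and their part in the difference was not tested beyond those settings. Mural cells differed from FB in 3 members (28.4% of all genes differed, 14.3% higher and 14.1% lower), with Birc5 higher (0.88 ± 0.29) and E2f1 (-2.37 ± 0.73) and Cdc6 (-2.74 ± 0.67) lower. Mesothelial cells differed from FB in 2 (21.5% of all genes differed, 9.71% higher and 11.8% lower), with Cenpa (-2.46 ± 0.63) and Cdc6 (-2.74 ± 0.85) lower.

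Several members were not detected in a class of 200 or more barcodes. In the wild type mural sum, Cdk1, Ccna2, Aurkb, Plk1, Bub1, Cenpe, Kif20a, Hmmr, Ccne1 and E2f1 had 0 UMIs, where 3 UMIs would have been 1.25 CPM. In the Foxn1Lin female mesothelial sum, Aurka, Aurkb, Plk1, Cenpf and Kif20a had 0 UMIs, with 3 UMIs at 0.786 CPM, and Aurka had 0 UMIs in the female mural sum, with 3 UMIs at 1.56 CPM. All of these genes were detected in TEC, EC and FB of every library.

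The ratio of 2 classes within 1 library was also taken gene by gene. The counting interval of the TEC to FB ratio lay wholly above 1 for 21, 21 and 22 of the 22 mitotic members, but for only 8, 4 and 11 of the 15 S phase members, with 1, 4 and 1 wholly below 1. For TEC over EC, 17, 19 and 18 mitotic members lay above 1 and 2, 2 and 5 S phase members did, while 7, 8 and 5 S phase members lay below. These intervals treat UMIs as independent and are too narrow where a gene's UMIs sit in few barcodes.

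How far the UMIs sat in few barcodes was measured for each member from the others alone. For each gene, barcodes with at least 4 thinned UMIs of the other 36 members were marked, and the share of the gene's UMIs in the marked barcodes was taken over the 3 libraries together. As the list holds 22 mitotic and 15 S phase genes, the marking itself leans toward barcodes rich in mitotic UMIs. The gap between mitotic and S phase shares is therefore not independent of the marking. In TEC, where 3.51% to 3.80% of 1710 barcodes were marked, the median over mitotic members was 72.8%, from 45.3% (Bub1b) to 94.4% (Plk1). For S phase members the median was 31.9%, from 14.5% (Mcm4) to 69.9% (Rrm2). Pooled over genes, 70.6% of 7702 mitotic UMIs and 29.0% of 4914 S phase UMIs in TEC lay in marked barcodes. Thus Top2a stood at 588 CPM inside and 9.55 CPM outside the marked TEC, and Pcna at 172 CPM inside and 41.4 CPM outside.

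In the other classes fewer barcodes were marked, 0.940% to 1.16% of 3192 EC, 0.229% to 0.298% of 4366 FB and 0.256% to 0.341% of 1172 mural barcodes, or 10 to 13 FB and 3 or 4 mural barcodes, so the shares of UMIs in them are not on 1 scale with those of TEC. The medians of mitotic and S phase members were 65.6% and 18.2% in EC, 57.9% and 1.19% in FB and 40.0% and 0.959% in mural barcodes. In FB only 1.33% of 5055 S phase UMIs lay in marked barcodes, against 49.2% of 1914 mitotic UMIs in the same barcodes. The values for single genes share barcodes and libraries and are given as a description.

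**Figure D4:**
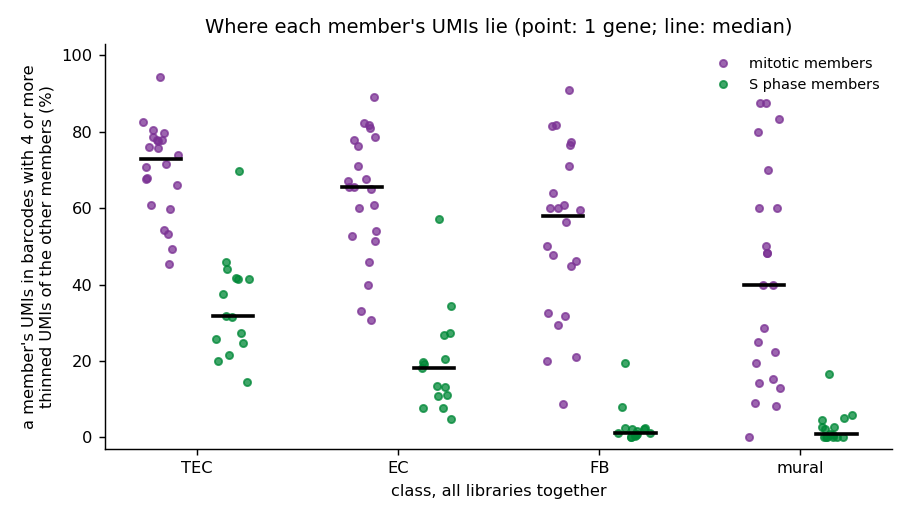
Share of each member's UMIs that lay in barcodes with 4 or more thinned UMIs of the other members (percent, vertical axis), by class (horizontal axis), 1 point per gene in mitotic or S phase color with a line at the median. Mitotic medians are 72.8%, 65.6%, 57.9% and 40.0% in TEC, EC, FB and mural barcodes, and S phase medians are 31.9%, 18.2%, 1.19% and 0.959%, with 60 to 65 TEC but only 10 to 13 FB and 3 or 4 mural barcodes marked.

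Other genes of the pathway were taken from fixed lists. Of 30 other mitotic genes, 25 were higher in TEC than in FB and 1 lower (the tubulin Tubb5, -0.56), with a median log2 fold change of 1.87. The centralspindlin subunit Racgap1 (2.99), the anaphase activator Cdc20 (1.37) and the chromatin protein Hmgb2 (1.43) were among the higher. Of 30 other S phase genes, 11 were higher and 4 lower, with a median of 0.65, where 30.1% of all genes were higher and 24.9% lower. The 15 of 30 called lie below the 55% of all genes and are no result about the list. Gmnn, the inhibitor of licensing (2.70), Uhrf1, which maintains DNA methylation (2.49), and the polymerase subunit Pold1 (2.22) were higher, and the primase-polymerase subunits Pola1 (-0.97) and Prim2 (-0.94) were lower. Against EC, the other mitotic genes split into 12 higher and 2 lower and the other S phase genes into 4 higher and 6 lower, fewer called of 30 in each list than the 56.3% of all genes.

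The counts of the upstream regulators are read against the 55% of all genes called against FB and the 56.3% called against EC, and lists this short show single genes only. Of 5 D-type cyclins and partners, which drive G1, Ccnd2 was higher in TEC than in FB (1.07) and Ccnd1 (-0.91) and Ccnd3 (-0.87) were lower. Of 7 CDK inhibitors, Cdkn2b, the p15 inhibitor, was higher (0.93) and Cdkn1a, the p21 inhibitor (-0.999), and Cdkn2d (-1.05) were lower. Of 12 pocket protein and DREAM genes, the late E2F repressor E2f8 (3.62), Mybl2 (1.07) and Rb1 (0.69) were higher and Lin9 (-0.66) and Rbl2 (-0.82) lower. Against EC all 7 inhibitors differed, 3 of them higher in TEC, Cdkn2a (4.01), Cdkn2b (3.69) and Cdkn2c (0.93), and 4 lower, with Cdkn1a at -2.66, and of the pocket protein and DREAM genes 3 of 12 differed, fewer than of all genes, all lower, among them E2f7 (-3.12).

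Genes outside the member list were compared between member-high and other TEC, which the Foxn1Lin female and wild type libraries allowed with 16 and 33 member-high barcodes. The fit held a member-high and an other sum from each of these 2 libraries, so its p-values rest on few values. Of 14401 non-member genes tested, 845 (5.87%) were called, 295 (2.05%) higher and 550 (3.82%) lower in member-high TEC. With immune-marker barcodes dropped 382 were called. The barcodes were picked by member UMIs, so higher levels of cell cycle genes made together with the members are built in and only described. Other mitotic genes made up 27 of the higher genes, from a list of 30, with a median log2 fold change of 3.63. Cdc20 stood at 155 and 77.4 CPM in member-high TEC against 1.28 and 2.34 CPM in the others (5.68 ± 0.54, edgeR adjusted p = 0.00367), and Hmgb2 at 1542 and 1419 CPM against 102 and 107 CPM (3.73 ± 0.22, adjusted p = 0.000405). Of the other S phase genes 11 of 30 were higher, with a median of 2.16, among them Uhrf1 (3.78 ± 0.43). The factors of the late wave, Foxm1 (4.12 ± 0.89) and Mybl2 (3.89 ± 0.59), were higher too, as was Cdk4, the kinase partner of D-type cyclins (1.22 ± 0.27), whereas Ccnd2 missed the limit (0.73 ± 0.22, edgeR adjusted p = 0.0946). Of the 7 CDK inhibitors, Cdkn1a alone had an unadjusted p under 0.05, and none was called by edgeR (Cdkn1a -0.96 ± 0.27, adjusted p = 0.0823).

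The called genes of TEC subsets were lower in the member-high barcodes. Of 23 tested, 7 were lower and none was called higher by edgeR, although 14 had an unadjusted p under 0.05. The lower genes included those of cortical TEC, the proteasome subunit Psmb11 (-4.40 ± 0.46), the protease Prss16 (-3.13 ± 0.60) and the receptor Ly75 (-1.96 ± 0.26), and those of other TEC types, Avil, Gp2, Ly6a and Wfdc2. Aire, which drives expression of tissue antigens in medullary TEC, stood at 246 and 410 CPM in member-high TEC against 199 and 120 CPM in the others, higher in both libraries but not past the limit (0.99 ± 0.35, edgeR adjusted p = 0.143). Fezf2 (0.94 ± 0.40, edgeR adjusted p = 0.216) and Cd80 (0.82 ± 0.28, adjusted p = 0.133), also of medullary TEC, missed it as well. Of the fibroblast subset genes, Gpx3 was lower. The median of the 7 tested endothelial subset genes was -0.70, and no gene of that list passed the limit or had an unadjusted p under 0.05 in edgeR.

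The 10 non-member genes of largest change all had 0 UMIs in the member-high TEC of both libraries, where 3 UMIs would have been 11.9 CPM (Foxn1Lin female) and 2.73 CPM (wild type). In the other TEC the secretoglobin Scgb3a1 stood at 126 and 246 CPM, the gustducin subunit Gnat3 at 32.2 and 42.7 CPM, the chemokine Ccl22 at 59.9 and 23.8 CPM, Gm94 at 39.8 and 22.2 CPM and Ptchd4 at 25.5 and 25.9 CPM. The secretoglobin Scgb3a2 (10.1 and 58.7 CPM), the mucin Muc5b (4.97 and 46.7 CPM) and Alox5ap (10.4 and 30.0 CPM) lay below the female limit in the other TEC of that library, and Klk7 (14.3 and 26.8 CPM) and the immunoglobulin segment Iglv1 (17.2 and 36.8 CPM) lay little above it. With 16 and 33 barcodes, absence of a gene made by few cells was thus hard to show at this depth.

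TEC were also split by marker UMIs in the thinned counts, with gates chosen after the data were seen. Member-high TEC were more frequent among those with Aire. With at least 1 Aire UMI, 6 of 89 (6.74%, 2.51% to 14.1%), 6 of 52 (11.5%, 4.35% to 23.4%) and 18 of 112 (16.1%, 9.81% to 24.2%) were member-high. Without Aire UMIs the shares were 10 of 362 (2.76%, 1.33% to 5.02%), 1 of 358 (0.279%, 0.00707% to 1.55%) and 15 of 737 (2.04%, 1.14% to 3.33%). The direction was the same in all 3 libraries, and the intervals overlapped in the Foxn1Lin female library alone. Among TEC with at least 10 UMIs of Ccl21a, a chemokine of another medullary type, 0 of 26, 0 of 47 and 0 of 50 were member-high, which allows up to 11.5%, 6.38% and 6%. Among those with at least 3 UMIs of the cortical genes Prss16 and Psmb11 the counts were 1 of 66, 0 of 9 and 0 of 60, and among those with at least 3 UMIs of Cldn3 and Plet1 they were 1 of 17, 0 of 13 and 0 of 27. The limits of these small gates reach or pass the shares of all TEC, so that a lower share was not detectable at this depth.

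The tdTomato reporter marks TEC with a history of Foxn1 in the Foxn1Lin libraries. Of TEC with at least 1 reporter UMI after thinning, 7 of 300 (2.33%, 0.943% to 4.75%) in the female and 4 of 321 (1.25%, 0.341% to 3.16%) in the male library were member-high, and of those without, 9 of 151 (5.96%, 2.76% to 11.01%) and 3 of 89 (3.37%, 0.701% to 9.54%). The intervals overlapped in both libraries, and no wild type TEC had a reporter UMI. A barcode without a reporter UMI at this depth may still carry the reporter.

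**Figure D5:**
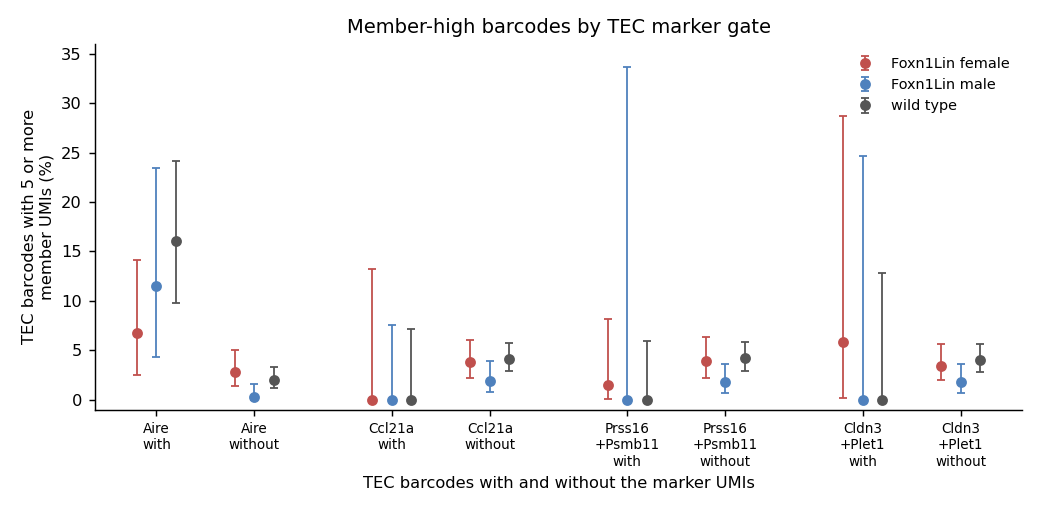
Share of TEC barcodes with 5 or more member UMIs (percent, vertical axis) among barcodes with and without the marker UMIs named on the horizontal axis, 1 point per library with its 95% exact binomial interval. Barcodes with Aire UMIs sit at 6.74% to 16.1% and those without at 0.279% to 2.76%, while the Ccl21a gate holds no member-high barcode. The gates were chosen after the data were seen.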

How the data were processed

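The deposited tables hold UMI counts per gene and barcode, made by the authors with Cell Ranger 7.0.1 (named in the file headers; the headers of the matrices of all barcodes name Cell Ranger 4) on mm10 with reporter sequences added, per the labels and the study's methods. Called barcodes were used, and the matrices of all barcodes only for empty droplets. Total counts were 53366016, 33386621 and 61258534 UMIs for the Foxn1Lin female, Foxn1Lin male and wild type libraries, and each group was 1 library. No further filter on cells was applied. Doublets were scored with Scrublet, whose automatic cutoff marked 0, 15 and 1 barcodes, so the top 3.9% of scores (the multiplet rate of the labels, in addition to barcodes in more than 1 class) was dropped as an alternative, as were barcodes with under 1000 genes or over 20% mitochondrial UMIs.

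Class sums of at least 20 barcodes (14 sums) were tested with edgeR 4.0.16 (R 4.3.3; TMM, filterByExpr, quasi-likelihood, library block). DESeq2 1.42.0 served as an alternative. Member-high and other barcodes were compared where at least 10 member-high barcodes were present in 2 or more libraries, which held for TEC alone. Shares have exact binomial (Clopper-Pearson) intervals at 95%, and a count of 0 is given the limit of 3 counts. Intervals and limits cover counting error only. The tests were checked on simulated counts. Members named with values in every library were, per role group, those with the highest TEC level (2 genes), the largest and smallest change against FB, calls against the majority and members at 0 UMIs in a class of 200 or more barcodes; Mcm3, Ccnb1 and further members were added after their values were seen. Outside the list, genes were named from fixed lists and as the 10 of largest change, and the examples within a list were chosen after their values were seen. The members and lists were chosen with earlier results of these data known. The symbol Ccl21a stands on 2 feature entries, which were summed for the barcode gate and left out of the list tests. Promoter windows and sequences came from RefSeq tables of GRCm38.p6. Dropping barcodes with T-cell or Ptprc UMIs and a second thinning seed were alternatives added after the data were seen. The marker and reporter gates within TEC were also chosen after the data were seen. Statistics used Python 3.11.15, numpy 2.4.6, scipy 1.17.1 and pandas 2.3.3, with Scrublet as in scanpy 1.11.5.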

Additional observations from a re-analysis of the deposited data

Results flagged for a closer look

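Class ratios of some members ran in opposite directions between libraries, with counting intervals on either side of 1; the difference between libraries was not tested, since each group was 1 library. Cenpf was 1.76 times as high in EC as in FB in the Foxn1Lin female and 9.06 times in the male library, but 0.673 times in the wild type. Mcm7 was 1.28 times as high in EC as in FB in the female and 0.534 times in the male library. Cdt1, the licensing factor that brings the helicase to origins, was 1.50 and 1.49 times as high in TEC as in FB in the female and wild type libraries and 0.431 times in the male. Pcna in TEC over FB was 0.694 in the male and 1.13 in the wild type library. Rrm2 in TEC over EC was 0.506 in the female and 1.49 in the wild type library.

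Barcodes outside the 5 classes also held member-high barcodes. Among barcodes that met more than 1 gate the share was 1.86%, 3.47% and 7.64%, and among barcodes that met none it was 1.62%, 1.14% and 2.59%, in the order Foxn1Lin female, Foxn1Lin male, wild type. Empty droplets carried 503, 420 and 550 member CPM, more than any class of the same library.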

How the results depend on the processing

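No paired analysis was possible between groups because each is 1 library and the labels give no shared replicate numbers. Classes were compared in pairs within libraries, with library as a block. Without that block the members called fell to 10 for EC against FB (27%, against 29% of all genes) and 7 for TEC against EC (18.9%, against 45.3%). They fell to 1 for mural against FB (2.7%, against 18.6%) and 1 for mesothelial against FB (2.7%, against 15.3%). The non-member genes called between member-high and other TEC fell to 96. Without a low-count filter that last count was 1843, with immune-marker barcodes dropped 382, and from thinned sums 385; it rests on the Foxn1Lin female and wild type libraries alone, so neither could be left out. Thinned sums tested 19 members and called 6 for EC against FB (31.6%, against 38.8% of all genes) and 9 for TEC against FB (47.4%, against 45.7%). They called 12 for TEC against EC (63.2%, against 48.9%) and 7 for TEC against mural (36.8%, against 43.7%). For mural and mesothelial cells against FB they called 1 each (5.26%), against 27.8% and 16.1% of all genes. The share of members called for TEC against FB was thus near that of all genes. Without member-high barcodes, which were picked by the members' own UMIs so that a fall is built in, 32 members were tested. The counts were 7 for EC against FB (21.9%, against 39.9% of all genes) and 14 for TEC against FB (43.8%, against 55%). They were 11 for TEC against mural (34.4%, against 48.3%) and 1 for mesothelial against FB (3.12%, against 21.6%). With immune-marker barcodes dropped the counts were 6, 14 and 8 for EC against FB, TEC against FB and TEC against mural. These were 16.7%, 38.9% and 22.2% of members, against 42.2%, 48.2% and 45.4% of all genes. With barcodes carrying T-cell or Ptprc UMIs dropped the counts were 6 for EC against FB (16.2%, against 38.8%) and 1 for mural against FB (2.7%, against 28%). Gates of 3 UMIs left 1 for mesothelial against FB (2.7%, against 21.6% of all genes). Leaving out 1 library gave 8 to 9 (EC against FB), 0 to 2 (mesothelial), 0 to 1 (mural), 6 to 10 (TEC against EC), 14 to 23 (TEC against FB) and 5 to 17 (TEC against mural). For EC, mesothelial and mural against FB, these were 21.6% to 24.3%, 0% to 5.41% and 0% to 2.7% of members. Of all genes, 23.8% to 36.7%, 7.7% to 15.3% and 12.8% to 24.3% were called. For TEC against EC, FB and mural, members stood at 16.2% to 27%, 37.8% to 62.2% and 13.5% to 45.9%. All genes stood at 39.1% to 52.2%, 39.8% to 50.1% and 30% to 42.2%. Birc5 for EC against FB changed sign, to -0.13 from thinned sums and -0.0343 without member-high barcodes. Of the alternative values of single members, 939 kept direction and call status, 304 lost the call and 2 changed sign. Causes were not tested.

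Shares in percent that were above 0 as reported and moved by over 1.5 times, in the order female, male, wild type where 3 are given, were as follows. With 3 or more UMIs, TEC were 6.21 (female), EC 3.35, 2.27 and 1.96, FB 0.879 (female) and 0.712 (wild type) and mural 1.27 (female) and 1.83 (male). With 10 or more, TEC were 1.33, 0.732 and 1.30, and in the female library EC were 0.379, FB 0.110 and mural 0. Thinned to 1000 UMIs, TEC were 1.08, 0.471 and 0.915, EC 0.552, 0.244 and 0.234, and female FB and mural 0.108 and 0.235. Thinned to 4000, TEC were 5.41 (female), EC 2.88, 1.92 and 1.35, FB 0.547 (female) and 0.386 (wild type) and mural 1.38 (female). Without thinning TEC were 19.3, 15.6 and 28.0, EC 6.01, 16.3 and 11.5, FB 1.76 (female) and 3.09 (wild type), and mural 1.53 (female) and 2.06 (male). Of the shares at 0 as reported, male FB, wild type mural, female mesothelial and wild type mesothelial became 4.76, 2.04, 6.73 and 8.33 without thinning and 0.348, 0.583, 0.306 and 2.78 with 3 or more UMIs. Gates of 1 UMI gave 0.288 for wild type FB and 0 for female and male mural barcodes, and a second thinning seed gave 0.356 for wild type FB. With immune-marker barcodes dropped, EC were 0.625 (female) and 0.128 (wild type) and TEC 0.313 (male) and 2.31 (wild type). With T-cell or Ptprc barcodes dropped, EC were 0.464 (female) and 0.134 (wild type).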
